A study of Mus musculus with 12 samples.

Results

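The replication-dependent histone genes of the mouse small intestinal crypt were examined in mice with and without a gene trap allele of Zfp148, a zinc finger transcription factor. Members were the rows, or transcript clusters, of the array value table whose annotated symbols all carry a histone name of the kinds H1f, H2ac, H2bc, H3c or H4c with a number, and a row with several such symbols counted as 1 row. There were 60 such rows of 33793, and they name 61 genes. Of these, 2 rows repeated another member row value for value, so counts and medians use the 58 rows with different values. In all, 30 rows carry 1 symbol and 30 carry several, and many histone genes are almost the same in sequence. Rows with the same symbols did not read alike, however. The 7 rows of the same 10 H2A genes had mean log2 signals from 1.95 to 10.03. Those of the 8 rows of the same 8 H3 genes ran from 1.59 to 6.50. Why such rows differ was not tested. Counted by class, 8 rows name H1 genes, 18 H2A, 13 H2B, 12 H3 and 8 H4 genes, and 1 row names H1 and H2B genes together. The annotation places 41 rows on chromosome 13, 8 on chromosome 3 and 8 on both, with 2 on chromosome 6 and 1 on chromosome 15. Another 13 rows carry histone symbols of other forms, such as H4f16, H2aw and H2bu2, and 1 row shares H1f10 with Gm5577; these fall outside the rule.

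Core histones H2A, H2B, H3 and H4 form the protein spool around which DNA is wound, and linker histone H1 binds where DNA enters and leaves it. Most of their genes lie in clusters, carry no introns and are transcribed in S phase, when new DNA must be packed. Their mRNAs end in a stem-loop bound by SLBP in place of a poly(A) tail, and they are degraded when DNA synthesis stops. In the intestine, cell division is concentrated in the crypt. The rule also admits genes that do not follow this pattern: H1f6, H1f7, H2ac1 and H2bc1 are known from the testis, H1f8 from the oocyte, and H1f10 is a linker histone expressed outside S phase.

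RNA came from 12 mice, 6 of genotype Zfp148gt/+APCMin/+ (mice 783, 891, 892, 893, 897 and 911) and 6 controls of genotype Zfp148+/+APCMin/+ (mice 782, 885, 888, 889, 895 and 899), on 1 array each. The gt allele is a germline gene trap carried in 1 copy, and mice of both groups carried the APCMin allele, which gives rise to intestinal adenomas. All were 12 weeks old, untreated, on a mixed 129/Bl6 background, and crypt-enriched tissue was cut from the proximal small intestine by laser microdissection. The methods speak of littermate controls, and the labels do not say which mice were littermates, so the mice were treated as separate and unpaired. Values are log2 signal after RMA normalization, so a difference of 1 is a doubling. The labelling kit primes along the whole transcript, so mRNAs without a poly(A) tail are included. Levels were compared within a row only, since probes of different rows differ in brightness for the same amount of RNA.

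The mean RNA signal of 24 S phase genes serves below as a reference, and DNA synthesis itself was not measured. Of 4 promoters shown, 3 belong to genes whose rows followed that reference across mice and 1 to a gene whose row did not. H1f5 encodes a linker histone, H2bc3 an H2B and H4c12 an H4, and these are the first 3. H1f2, the last, encodes another linker histone. The sequences are the 250 bases before the RefSeq start of each gene in GRCm38.p6, written 5′ to 3′, at chr13:21780626-21780875 (minus strand), chr13:23746484-23746733 (plus strand), chr13:21750554-21750803 (minus strand) and chr13:23738557-23738806 (plus strand). Capitals mark matches on either strand to TATAAA (the TATA box), CCAAT, ATTTGCAT (the octamer known from H2B promoters) and AAACACA (a box known from H1 promoters). None of these motifs contains another.

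H1f5: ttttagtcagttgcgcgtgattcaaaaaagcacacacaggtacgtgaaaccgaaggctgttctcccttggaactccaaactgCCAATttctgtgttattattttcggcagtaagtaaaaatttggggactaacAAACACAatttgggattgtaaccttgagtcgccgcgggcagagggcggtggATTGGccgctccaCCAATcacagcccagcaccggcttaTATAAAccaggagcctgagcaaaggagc
H2bc3: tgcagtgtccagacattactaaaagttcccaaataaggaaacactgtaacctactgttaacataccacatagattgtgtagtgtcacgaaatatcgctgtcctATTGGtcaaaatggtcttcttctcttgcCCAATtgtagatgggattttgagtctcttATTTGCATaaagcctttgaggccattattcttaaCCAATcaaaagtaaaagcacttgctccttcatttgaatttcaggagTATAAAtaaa
H4c12: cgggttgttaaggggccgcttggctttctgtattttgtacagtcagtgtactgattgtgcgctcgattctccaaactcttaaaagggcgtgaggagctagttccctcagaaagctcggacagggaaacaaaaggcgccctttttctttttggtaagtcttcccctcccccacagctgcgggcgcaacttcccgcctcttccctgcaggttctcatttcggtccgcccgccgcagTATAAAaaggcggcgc
H1f2: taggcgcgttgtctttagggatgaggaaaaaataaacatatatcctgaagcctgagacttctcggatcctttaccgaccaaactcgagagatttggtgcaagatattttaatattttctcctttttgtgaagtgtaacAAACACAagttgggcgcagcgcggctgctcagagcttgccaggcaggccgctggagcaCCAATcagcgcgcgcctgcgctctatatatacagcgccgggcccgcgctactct

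H1f5 and H1f2 both hold AAACACA, beginning at -117 and -112 from the start, and both hold CCAAT on at least 1 strand. TATAAA stands at -28 in H1f5, at -10 in H2bc3 and at -16 in H4c12, and these letters are not in the H1f2 window. The H1f2 window does hold tatatata, a TATA-like stretch that the search for TATAAA leaves unmarked. The absence of TATAAA therefore does not show that this promoter lacks a TATA box. Nor do the 4 windows stand for the family. The H2bc18 window has no TATAAA although its row had r = 0.75 with the S phase mean across mice. The H4c9 window holds TATAAA although its row had r = 0.07. Whether the motif goes with that relation was not tested. Of the 61 genes named by the rows, 56 were in the promoter table, with 57 windows. TATAAA or its complement was in 26 of the 57 histone windows (45.6%) and in 12.4% of all 32851 windows of this length. CCAAT was in 47 windows (82.5%), against 33.8% of all. It was in all 17 H2A and all 14 H2B windows but in only 1 of 7 H4 windows. ATTTGCAT was in 7 of 14 H2B and 6 of 17 H2A windows and in 0 of the H1, H3 and H4 windows, against 1.6% of all. AAACACA was in 5 of 9 H1 windows (55.6%), those of H1f2, H1f3, H1f4, H1f5 and H1f6, against 6.25% of all. A match is a match of letters and was not measured as a binding site.

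The gene trap itself was visible in the RNA. Zfp148 signal was 5.45 ± 0.37 (SD, n = 6) in Zfp148gt/+APCMin/+ mice and 6.34 ± 0.31 (SD, n = 6) in controls, with no overlap between the groups. The smallest p that 6 mice against 6 allow, 0.0022, was reached by the exact permutation test (two-sided), while the limma adjusted p over all rows was 0.68. Array medians lay between 2.64 and 2.78. The interquartile range of array signal was 2.77 ± 0.093 (SD, n = 6) in Zfp148gt/+APCMin/+ mice and 2.92 ± 0.070 (SD, n = 6) in controls, so this property of the arrays moved with genotype, and it was run as a covariate. Crypt markers were present in every mouse: the mean log2 signal of 6 stem and progenitor genes ran from 7.43 to 7.80 and that of 3 Paneth cell genes from 11.64 to 12.19. Villus enterocyte genes varied more, from 4.37 to 6.02. The means of the 6 fibroblast genes and 5 smooth muscle genes were lower in Zfp148gt/+APCMin/+ mice by 0.52 and 0.36, ranging from 6.19 to 7.03 against 6.77 to 7.57 and from 5.83 to 6.33 against 5.46 to 6.89. Of their genes, 6 of 6 and 5 of 5 had the lower mean there. Over the 16896 rows brighter than the median row mean of 2.71, which include these genes, 58.4% had the lower mean there. Across the 12 mice the fibroblast and smooth muscle means had r = 0.71 and 0.61 with the array interquartile range, and its part in their difference was not tested. The 6 lymphocyte genes averaged 5.38 and 5.36. RMA values have no zero, so no marker is listed at 0. In such bulk tissue, fewer cells of a type and less RNA per cell cannot be told apart.

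No histone row differed between the genotypes at the threshold of limma adjusted p under 0.05. Of all 33793 rows, 0 (0%) passed, and the lowest adjusted p among the histone rows was 0.71. Of the 58 histone rows, 28 were higher in Zfp148gt/+APCMin/+ mice by their mean and 30 were lower. Their median log2 difference was -0.0014, beside 0.020 over all rows and -0.04 over the 16896 rows above the array median. The 95% confidence interval lay within a 2-fold change in either direction for 50 of 58 rows (86.2%), against 94.4% of all rows, so for the other 8 rows a change of that size was not outside the interval. Among histone rows above the array median the share was lower, 25 of 32 (78.1%), against 90.7% of all rows above it. At an unadjusted p under 0.05, 1 of 58 histone rows was higher and 1 lower. The background over all rows was 3.88% higher and 2.88% lower, so neither count stood above it. In 0 of the 58 rows did the 6 and 6 values stand apart without overlap, against 0.308% of all rows. By class the median difference was -0.02 for H1, -0.01 for H2A, 0.02 for H2B, 0.03 for H3 and 0.01 for H4.

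**Figure D1:**
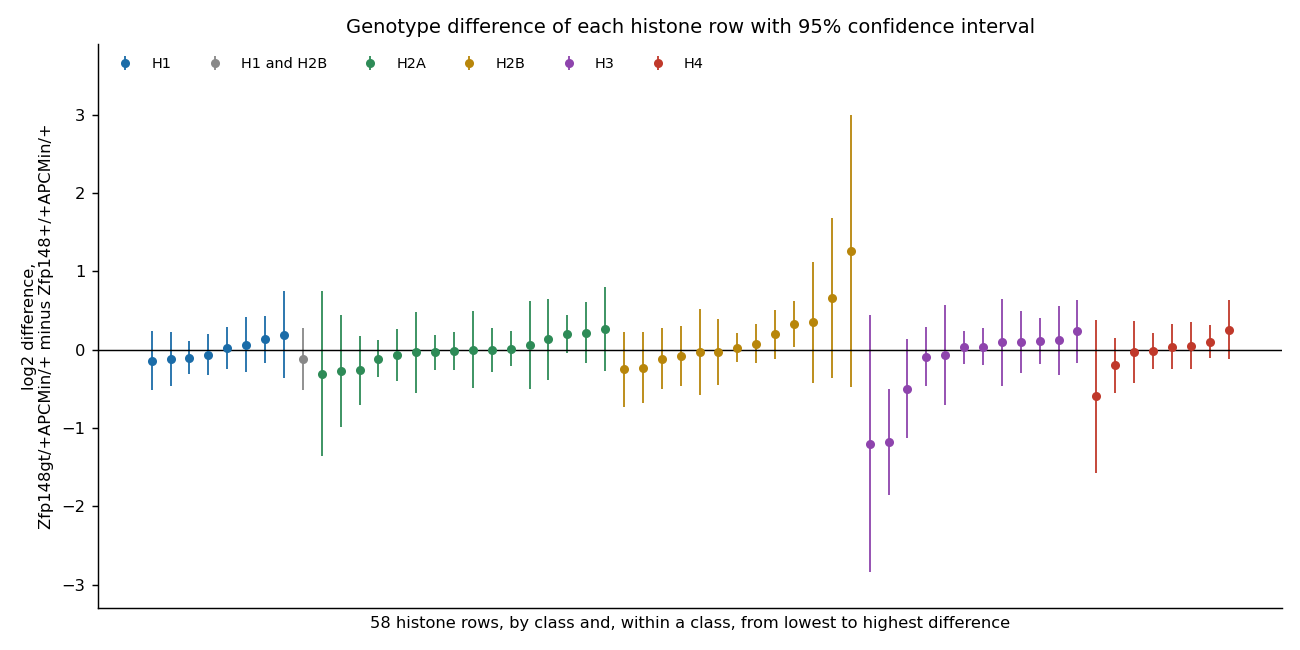
Log2 difference in signal between Zfp148gt/+APCMin/+ and control mice (y axis) for each of the 58 histone rows (x axis, grouped by class and ordered by difference), as points with 95% confidence intervals from limma (n = 6 mice per genotype). Most points lie near 0; the widest intervals belong to H2B, H3, H2A and H4 rows, and the lowest points are 2 H3 rows at -1.20 and -1.17.

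Averaged over the 58 rows, histone signal per mouse was 4.45 ± 0.16 (SD, n = 6) in Zfp148gt/+APCMin/+ mice and 4.47 ± 0.090 (SD, n = 6) in controls, a difference of -0.02 that is smaller than either SD. In control mice 782, 885, 888, 889, 895 and 899 this mean was 4.47, 4.42, 4.65, 4.41, 4.41 and 4.44. In Zfp148gt/+APCMin/+ mice 783, 891, 892, 893, 897 and 911 it was 4.43, 4.42, 4.50, 4.39, 4.72 and 4.25. Control mouse 888 and Zfp148gt/+APCMin/+ mouse 897 stood above the rest and mouse 911 below, so the extremes came from both genotypes.

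Among linker histones, H1f5 had the brightest row. Its signal was 10.49, 10.42, 10.57, 10.54, 10.76 and 10.23 in the controls and 10.46, 10.37, 10.90, 10.72, 11.05 and 10.30 in Zfp148gt/+APCMin/+ mice, in the mouse order given above. Mice 897 and 892 lay above every control, and the other 4 fell within the control range. The log2 difference was 0.13 (95% confidence interval -0.17 to 0.43, limma adjusted p = 0.86), and 0.046 without mouse 897. H1f2, the next brightest row of the class, had 6.60 ± 0.15 (SD, n = 6) in controls and 6.48 ± 0.38 (SD, n = 6) in Zfp148gt/+APCMin/+ mice, a difference of -0.12 (-0.46 to 0.23) that was -0.019 without mouse 892. Its values in the latter fell into mice 783, 891 and 893 at 6.75 to 6.87 and mice 892, 897 and 911 at 5.99 to 6.29. The smallest p of the class belonged to the testis gene H1f7, at -0.10 (-0.31 to 0.11). All 8 H1 rows, 5 of them above the array median, had intervals within a 2-fold change.

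The brightest H2A row, cluster 17291012, names H2ac22 and 9 further H2A genes. It read 10.03 ± 0.27 (SD, n = 6) in controls and 10.03 ± 0.18 (SD, n = 6) in Zfp148gt/+APCMin/+ mice, with a 95% confidence interval of the difference from -0.28 to 0.28. A second row, cluster 17285703, adds H2ac10 and H2ac15 to those 10 genes and differed by -0.03 (-0.26 to 0.19). H2ac12, which had the smallest p of the class, differed by 0.20 (-0.05 to 0.44), from a dim row at 1.55 in controls. Cluster 17291057, which lists H2ac11 first, was among the 3 rows of largest spread. Its values were 6.65, 6.59, 5.97, 6.93, 6.37 and 7.40 in controls and 5.87, 5.05, 7.63, 5.11, 8.09 and 6.33 in Zfp148gt/+APCMin/+ mice, so that the latter lay both above and below the control range. The difference was -0.31 (95% confidence interval -1.36 to 0.75), and -0.0053 with the stromal mean as a covariate.

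For H2B, the row shared by H2bc13, H2bc15, H2bc11 and H2bc7 was both the brightest histone row and the one of least spread. It read 12.04, 12.07, 12.23, 12.08, 12.23 and 11.98 in controls and 12.12, 12.08, 12.27, 12.09, 12.30 and 11.94 in Zfp148gt/+APCMin/+ mice. The groups covered almost the same range, and the difference was 0.02 (95% confidence interval -0.16 to 0.21). Cluster 17285851, which names H2bc4, H2bc8 and H2bc6, read 10.64, 10.64, 10.21, 10.08, 10.12 and 10.74 in controls and 10.55, 10.70, 9.34, 10.12, 9.80 and 10.43 in Zfp148gt/+APCMin/+ mice, a difference of -0.25 (-0.73 to 0.23) that was -0.087 without mouse 892 and 0.099 with the array interquartile range as a covariate. Mice 892 and 897 were the lowest for this row although they were among the highest for H1f5.

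A second row of the same 3 genes, cluster 17285834, varied more between mice than any other histone row. Control values were 4.67, 7.44, 5.15, 5.73, 1.84 and 4.8, and Zfp148gt/+APCMin/+ values were 7.01, 6.49, 6.01, 5.04, 8.15 and 4.52. Its difference of 1.26 had a 95% confidence interval from -0.47 to 3.0 and was 0.53 with the array interquartile range as a covariate, and the groups overlapped widely, with control mouse 895 alone below all others. The pair of rows for these genes thus differed in direction, and in neither did the difference exceed the spread between mice. H2bc1, the testis H2B, was the single histone row higher at an unadjusted p under 0.05. It was dim, with 1.48, 1.25, 1.35, 1.16, 1.49 and 1.43 in controls and 1.22, 1.55, 1.79, 2.17, 1.70 and 1.68 in Zfp148gt/+APCMin/+ mice. There 5 of 6 Zfp148gt/+APCMin/+ mice exceeded all controls, the difference was 0.33 (0.03 to 0.62), the exact permutation test gave p = 0.035 (two-sided) and limma an adjusted p of 0.72.

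**Figure D2:**
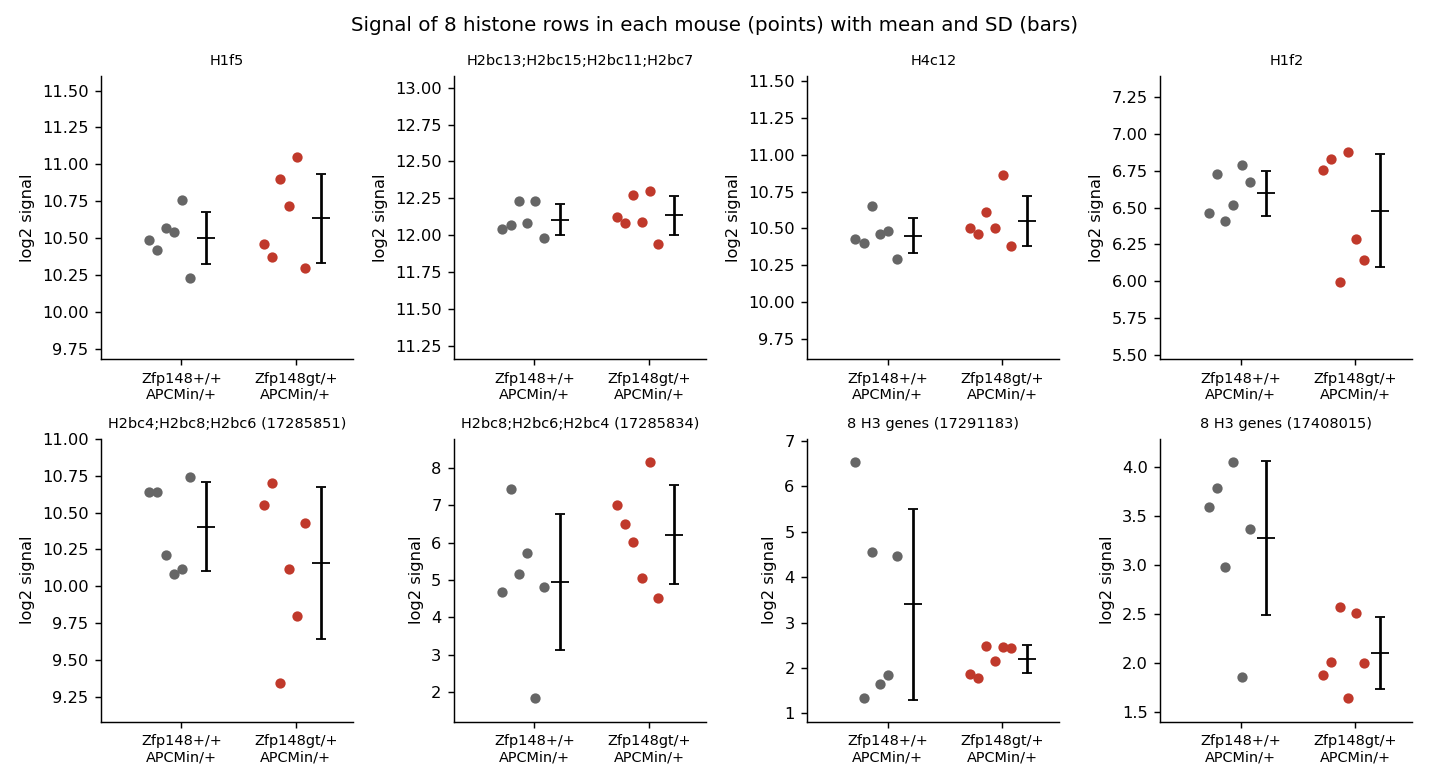
Log2 signal (y axis, a separate scale in each panel) of 8 histone rows in the 6 control and 6 Zfp148gt/+APCMin/+ mice (x axis), with 1 point per mouse and bars for the mean and SD. The H2bc13 and H4c12 panels show tight groups that overlap, cluster 17291183 shows 3 controls above all other mice, and cluster 17408015 shows 5 of 6 controls above every Zfp148gt/+APCMin/+ mouse.

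H3 rows name either 8 genes (H3c2, H3c3, H3c4, H3c6, H3c7, H3c13, H3c14 and H3c15) or 4 (H3c1, H3c8, H3c10 and H3c11). Cluster 17408015, of the 8-gene kind, was the single histone row lower at an unadjusted p under 0.05. Control values were 3.60, 3.79, 2.98, 4.05, 1.86 and 3.37, and Zfp148gt/+APCMin/+ values were 1.87, 2.01, 2.57, 1.64, 2.50 and 2.0. All controls but mouse 895 lay above every Zfp148gt/+APCMin/+ mouse. The row is dim, its mean of 2.69 over the 12 mice lying below the median row mean of 2.71, so no fold is given. The log2 difference was -1.17 (95% confidence interval -1.85 to -0.50), with an exact permutation p of 0.015 (two-sided) and a limma adjusted p of 0.71. Among the other 7 rows of the same 8 genes, 5 had a higher mean and 2 a lower one in Zfp148gt/+APCMin/+ mice. The brightest of these, cluster 17400555, differed by 0.04 (-0.20 to 0.28), from 6.48 ± 0.10 (SD, n = 6) in controls to 6.52 ± 0.23 (SD, n = 6). Of the 8 rows only 2, this one and cluster 17291183 at -1.20, lie above the array median. Most of the directions counted therefore come from dim rows.

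Cluster 17291183, also of the 8-gene kind, stood at 6.53, 1.34, 4.56, 1.66, 1.84 and 4.46 in controls and between 1.79 and 2.49 in Zfp148gt/+APCMin/+ mice. Control mice 782, 888 and 899 formed the high values and the other 9 mice lay close together, and the difference was -1.20 (95% confidence interval -2.83 to 0.44). It was -0.57 without control mouse 782 and -0.0076 with the array interquartile range as a covariate. The brightest row of the 4-gene kind, cluster 17285680, differed by -0.50 (-1.13 to 0.14). In this row Zfp148gt/+APCMin/+ mouse 783 was lowest at 3.47 and mouse 893 was level with the highest control at 5.5.

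H4 genes mostly encode the same protein. H4c12 read 10.43, 10.40, 10.65, 10.46, 10.48 and 10.29 in controls and 10.50, 10.46, 10.61, 10.50, 10.86 and 10.38 in Zfp148gt/+APCMin/+ mice. Mouse 897 was the highest of its group and mouse 888 of the controls, and the difference was 0.10 (95% confidence interval -0.11 to 0.31), or 0.038 without mouse 897. The row of H4c17, H4c8, H4c9, H4c18, H4c1 and H4c2 differed by 0.04 (-0.25 to 0.32). H4c14, dim at 1.92 in controls, had the smallest p of the class with a difference of 0.26 (-0.12 to 0.64).

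Mice of a genotype differed more from each other in histone rows than in the typical row. Measured as the SD of log2 signal among mice of 1 genotype, the median was 0.33 over the 58 rows, 0.24 over all rows, 0.35 over the 32 histone rows above the array median and 0.31 over all rows above it. An SD over 0.8 was found in 5 of 58 histone rows (8.62%), against 2.33% of all rows and 3.75% of those above the array median. Those 5 were clusters 17285834, 17291183 and 17291057, named above, and the rows of H2bc9 (SD 0.93) and H4c9 (SD 0.89).

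Part of this spread ran along with DNA replication genes. The mean of 24 S phase genes, among them Pcna, the Mcm helicase genes and DNA polymerase subunits, ranged from 6.11 to 6.56 in controls and from 6.11 to 6.70 in Zfp148gt/+APCMin/+ mice, and its genotype means were 6.32 ± 0.17 and 6.33 ± 0.22 (SD, n = 6 each). The mean of the 32 histone rows above the array median was 6.44, 6.34, 6.60, 6.29, 6.40 and 6.33 in controls and 6.40, 6.32, 6.47, 6.23, 6.71 and 6.09 in Zfp148gt/+APCMin/+ mice. Mice 897 and 888 were the highest for both measures. Over the 12 mice these means correlated with r = 0.88 (Spearman's rho = 0.88), given as a description without a test because the relation was chosen after the values were seen. With the genotype means taken out r was 0.89, and within controls and within Zfp148gt/+APCMin/+ mice alone it was 0.88 and 0.91. Without mice 897 and 888, which lie farthest from the S phase median, r was 0.69. Both measures come from the same arrays; the interquartile range of array signal had r = -0.03 with the histone mean and 0.06 with the S phase mean.

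**Figure D3:**
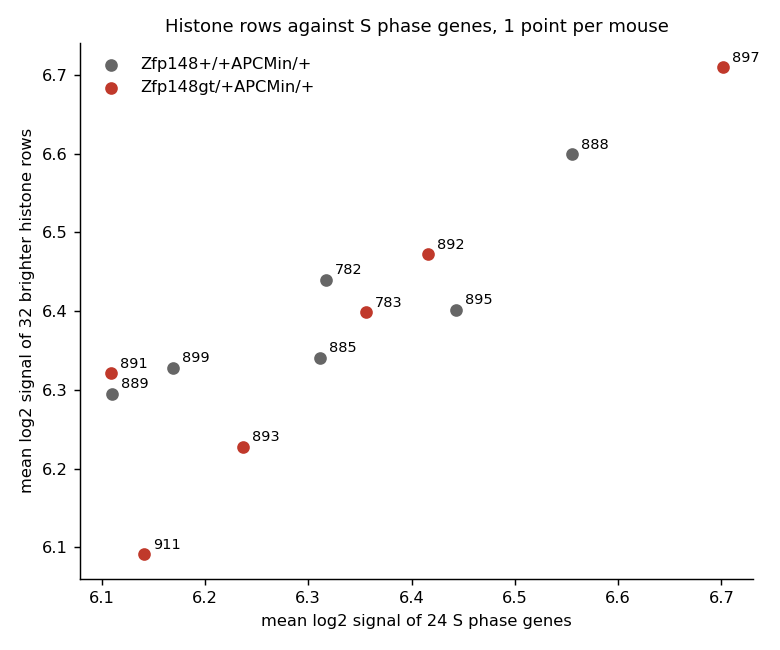
Mean log2 signal of the 32 histone rows above the array median (y axis) against that of 24 S phase genes (x axis), with 1 point per mouse labelled by its number and coloured by genotype. The points rise together (r = 0.88 over 12 mice) in both genotypes, with mice 897 and 888 at the upper end and mouse 911 lowest on the y axis.

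Individual rows differed in how closely they followed S phase genes. Of the 32 histone rows above the array median, 16 (50%) had r over 0.5 and 8 (25%) had r over 0.7, against 6.79% and 1.09% of all 16872 rows above it with the S phase genes left out. The median r was 0.46 for the histone rows and -0.0011 for all those rows. Without mice 897 and 888, 9 of the 32 (28.1%) had r over 0.5 and 2 (6.25%) over 0.7, against 7.51% and 1.5% of all those rows, and the median was 0.30. The row of H2bc13, H2bc15, H2bc11 and H2bc7 and that of H4c12 reached 0.84, H2bc3 0.82, the 6-gene H4 row 0.80, H2bc18 0.75, and H1f5 and the H3 cluster 17400555 0.74. Without those 2 mice the H2bc13 row had 0.74, H1f5 0.66, H2bc3 0.61 and H4c12 0.53. A row of small spread could thus carry the relation, since the H2bc13 row spanned only 11.94 to 12.30. Among the 11 H2A rows above the median, r ran from 0.26 to 0.70 over the 12 mice and from -0.11 to 0.80 without mice 897 and 888, with 7 and 1 of them over 0.5. Of the rows with SD over 0.8, r was 0.19, 0.13, 0.41, 0.34 and 0.07 for clusters 17285834, 17291183 and 17291057, H2bc9 and H4c9. Over all 12 mice the most variable rows were thus not the ones that followed S phase genes. Within genotypes, clusters 17285834 and 17291057 had r = -0.33 and -0.91 in controls but 0.75 and 0.83 in Zfp148gt/+APCMin/+ mice. The others with SD over 0.8 ran from 0.03 to 0.51 within genotypes.

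Cluster 17285851 (H2bc4, H2bc8 and H2bc6) ran the other way, with r = -0.51, and without mice 897 and 888 it had -0.41. H1f2 had r = -0.30, and -0.08 without those mice, and H1f10 had -0.22 (rho = -0.03). Neither H1f2 nor H1f10 followed the S phase genes or had a stable relation to them. For cluster 17285851 r was -0.26 within controls and -0.65 within Zfp148gt/+APCMin/+ mice, so it was negative in each of these settings. Within the same 2 groups H1f2 had -0.12 and -0.38 and H1f10 had 0.01 and -0.40. Cluster 17285851 had r = 0.77 with the mean of the 6 villus enterocyte genes, whereas H1f5 had -0.74 and the H2bc13 row -0.78. H1f2 had 0.26. The enterocyte mean itself had r = -0.65 with the S phase mean, and with it regressed out the relation between histone rows and S phase genes was r = 0.87. The human counterparts of H1f2 and H2bc4 are known to give polyadenylated transcripts in non-dividing cells; poly(A) tails were not measured here.

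**Figure D4:**
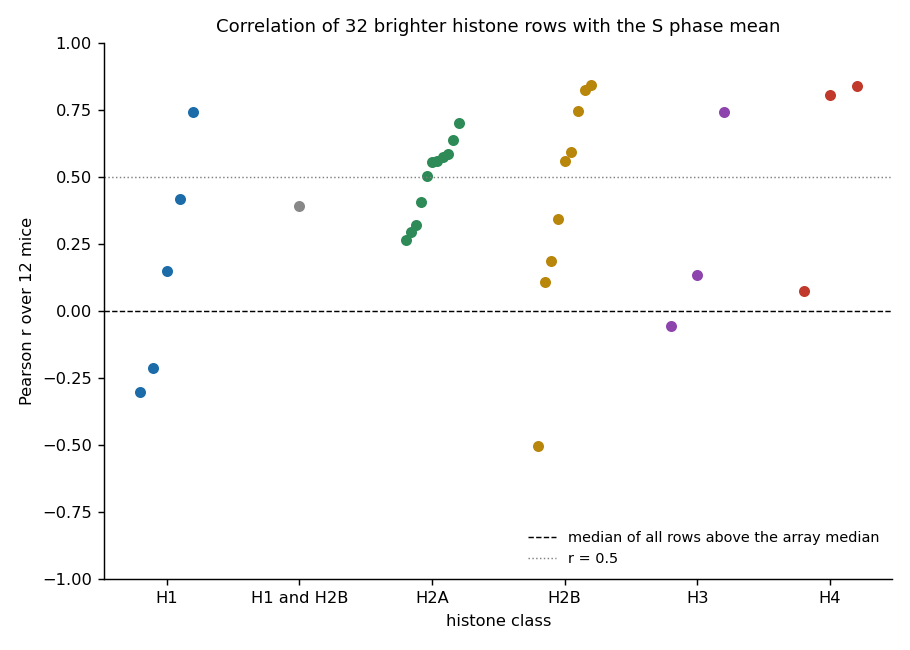
Pearson r over 12 mice between each of the 32 histone rows above the array median and the mean of 24 S phase genes (y axis), by histone class (x axis), with 1 point per row. The dashed line is the median r of all rows above the array median (-0.0011) and the dotted line r = 0.5; 16 points lie above the dotted line and 4 lie below 0.

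Genes that make, process and deliver histones were compared next. Of 23 listed genes of histone mRNA processing 22 were measured. Of these 0 passed by limma, 6 were higher and 16 lower by their mean, 2 of the lower ones at an unadjusted p under 0.05, and the median difference was -0.08. Over all rows above the array median, 58.4% were lower by their mean, 5.08% were lower and 2.41% higher at an unadjusted p under 0.05, and the median was -0.04. Slbp, whose protein binds the stem-loop, read 6.88 ± 0.11 (SD, n = 6) in Zfp148gt/+APCMin/+ mice and 6.92 ± 0.29 (SD, n = 6) in controls. Eri1, the exonuclease that trims histone mRNA ends, differed by -0.24 (95% confidence interval -0.45 to -0.03) and Tut7, a terminal uridylyltransferase that acts in histone mRNA decay, by -0.33 (-0.64 to -0.02). Their limma adjusted p was 0.72 and 0.73. With the array interquartile range as a covariate Tut7 differed by -0.021.

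Of 8 measured genes of histone gene transcription (10 listed), 0 passed, with 5 higher, 3 lower and a median difference of 0.01, which was 0.22 with the array interquartile range and 0.15 with the stromal mean as a covariate. Npat, the coactivator that cyclin E and Cdk2 switch on at the start of S phase, read 4.98 ± 0.65 (SD, n = 6) in Zfp148gt/+APCMin/+ mice and 4.97 ± 0.26 (SD, n = 6) in controls, a difference of 0.0089 that was 0.40 with the array interquartile range as a covariate. Creb1, a transcription factor of the cAMP response, differed by 0.42 (95% confidence interval 0.13 to 0.70, limma adjusted p = 0.72), the single gene of its list at an unadjusted p under 0.05. Of 18 histone chaperone genes, 0 passed and the median was -0.02; Atrx, which with Daxx places histone H3.3 in chromatin, differed by -0.26 (-0.52 to -0.0033), with a limma adjusted p of 0.74, and by -0.082 with the array interquartile range as a covariate. Of 8 replacement histone genes, among them H1f10, which is also counted in the histone rows, 0 passed and the median was 0.0047. Macroh2a1 differed by 0.23 (0.0050 to 0.46), also with a limma adjusted p of 0.74, and by 0.41 with the array interquartile range as a covariate. The S phase genes (24 measured, median -0.0061, 0 passed) and mitosis genes (17 measured, median 0.0085, 0 passed) were likewise near 0 by their medians. Lig1, the ligase of replication, and Uhrf1, which couples DNA methylation to replication, had the smallest p of the S phase list at -0.15 (-0.42 to 0.13) and 0.25 (-0.22 to 0.71), and the mitotic kinase gene Cdk1 differed by -0.23 (-0.45 to -0.01). Atrx (1 of 18), Macroh2a1 (1 of 8) and Cdk1 (1 of 17) were the single genes of their lists at an unadjusted p under 0.05, and the S phase list had 0 of 24; over all rows the shares were 3.88% higher and 2.88% lower.

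Across the 12 mice, the mean of the histone chaperone genes had r = 0.93 with the S phase mean, that of histone gene transcription 0.79, that of mitosis 0.57, that of histone mRNA processing 0.54 and that of the replacement histones 0.24. Single replacement histone genes ran from r = -0.33 for H2az2 to 0.67 for H2ax. These correlations share the arrays and the S phase mean, and their differences were not tested.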

How the data were processed

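RNA was measured on 12 Affymetrix Gene 2.0 ST arrays, 1 per mouse, from 250 ng of total RNA. The authors normalized the arrays by RMA in Expression Console, and the deposited values are read as log2 (0.85 to 13.24), since the base is not stated, with a genome build not given in the sources used here. Precision is set by the 6 mice per genotype, an array having no depth. RMA makes distributions alike, so a change shared by most genes would not show. Rows were matched by the array annotation; all mice were used and grouped by labelled genotype. Genotypes were compared with limma 3.58.1 (R 4.3.3; lmFit, eBayes, Benjamini-Hochberg over 33793 rows, threshold 0.05) and exact permutation tests over 924 assignments; the fit was tested on simulated data. Tables and figures used pandas 2.3.3 and matplotlib 3.10.9. Promoter sequences came from RefSeq. Members, lists and tests were chosen with earlier results of these data known. Named rows were those with unadjusted p under 0.05, the 2 brightest and the smallest p of each class, and the 3 of largest SD; list genes had unadjusted p under 0.05, or else the 2 smallest p, and Slbp, Npat and Zfp148 were always named. H2bc3, H2bc18, H2bc9, H4c9 and H1f10, and the correlations with S phase genes, were chosen after their values were seen. Alternatives were other scalings, brighter rows, other eBayes settings, array weights, covariates, each mouse left out and the methods' t-test.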

Additional observations from a re-analysis of the deposited data

Results flagged for a closer look

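Of 74 groups of 6 values screened for a sample far from the others, 2 held one, and chance flags about 1 in 20 groups. The mean of all histone rows was 4.65 in control mouse 888, and the other 5 controls lay between 4.41 and 4.47. The testis gene H1f7 read 2.02 in Zfp148gt/+APCMin/+ mouse 897, and the other 5 mice of that genotype lay between 2.15 and 2.22, all below the median row mean of 2.71.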

How the results depend on the processing

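No histone row passed by limma adjusted p under any alternative, and the median over the histone rows stayed between -0.05 and 0.05. The correlation of the brighter histone rows with the S phase mean ran from 0.69 to 0.91 over 21 alternatives chosen after seeing the data. The number of histone rows at an unadjusted p under 0.05, 2 as reported, was 1 with arrays centred on their median, 0 with brighter rows only and 1 with the stromal mean as covariate, and 2 to 4 with a mouse left out (4 without control mouse 888). Both reported rows are dimmer than the median row mean, so the setting of brighter rows leaves them out and its 0 says nothing about them. Over all rows, leaving out a mouse gave 0 to 1 passing rows, the 1 without control mouse 885. With brighter rows only the H3 median was -0.50, over 3 rows. The methods' t-test gave 2 histone rows before and 0 after Benjamini-Hochberg adjustment. Some differences turned sign. With arrays centred, H2bc13 read -0.018, H3c15 (cluster 17400555) -0.0059, H4c17 -0.0066 and Npat -0.034. With quantile normalization once more, H2ac22 read 0.030, H2ac23 0.012, H2bc13 -0.013 and Slbp 0.018. With the array interquartile range as covariate, H1f5 read -0.043, H2bc13 -0.056, H2bc4 (cluster 17285851) 0.099, H3c15 -0.088, H4c14 -0.15 and Uhrf1 -0.069. With the S phase mean as covariate Npat read -0.0050. Others shrank but kept their sign. With the stromal mean as covariate H2ac12 read 0.058 and Lig1 -0.019, and without control mouse 888 H1f7 read -0.042. The cause was not tested. With each mouse left out in turn, H2ac22 ran from -0.062 to 0.092, H2ac23 from -0.086 to 0.029, H2bc13 from -0.0087 to 0.064, H3c15 from -0.030 to 0.11, H4c17 from -0.036 to 0.10, Slbp from -0.15 to 0.011 and Npat from -0.21 to 0.14. H2ac23 here is cluster 17285703, and a row of several genes goes by its first symbol. No paired analysis was possible because the labels do not say which mice were littermates.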

Other observations

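The 12 different rows with histone symbols outside the rule were much like the rest in their genotype difference. Of these, 6 were higher and 6 lower by their mean in Zfp148gt/+APCMin/+ mice, 0 passed by limma (0 also at an unadjusted p under 0.05), and the median log2 difference was 0.01. H2aw differed by -0.46 with a limma adjusted p of 0.74. With these rows counted too, the median over 70 rows was -0.0014, and without the 6 rows of germ line genes and H1f10 it was also -0.0014 over 52 rows. The mean of the 12 rows outside the rule had r = 0.41 with the S phase mean across mice, against 0.83 for the mean of the 58 rows.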
